A study of Mus musculus with 35 samples.

Results

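Wounds collected on day 19 after injury were compared between mice lacking the collagen V gene Col5a1 in fibroblasts (Col5a1CKO, n = 3) and wild-type mice (WT, n = 3). The 6 libraries were taken by their column names from a table of raw read counts that held 23 libraries of day 14 and day 19 wounds, in a series of 35 samples. Each symbol was represented by its row with the most reads, which left 22830 genes. WT animals were Cre-negative littermates with floxed Col5a1 (Col5a1 fl/fl), and Col5a1CKO animals carried the same floxed alleles with Col1a2CreERT, a tamoxifen-inducible Cre under the Col1a2 promoter, on the B6 background. Both groups received tamoxifen before and after wounding, and the study used mice of 8 to 12 weeks and of both sexes. RNA came from a 6 mm punch taken at the middle of a full-thickness excisional wound on the back. The Cre driver limits the deletion to cells that express Col1a2, so other cells of the wound keep Col5a1. The treatment label of the day 19 Col5a1CKO samples also names WT fibroblasts, whereas their titles and columns name Col5a1CKO alone, and the titles were followed. According to the study's methods, n counted separate biological replicates.

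Collagen V is a minor fibrillar collagen that assembles with collagens I and III and sets the diameter and order of the fibrils in dermis and scar. In a healing wound, fibroblasts turn into myofibroblasts, which carry smooth muscle actin and other contractile proteins and pull on the matrix they deposit. The epidermis closes from the wound edge and from hair follicles, and the follicle itself is built of concentric layers that each express their own keratins.

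The 6 libraries held 18074680 to 21901350 counts in the genes kept, with a count in 17092 to 17656 genes, and 15135 genes passed the filter on low counts and were tested. Levels are given as CPM, counts scaled to a common library total with trimmed-mean (TMM) factors. The log2 fold change is Col5a1CKO minus WT with its standard error (SE), and adjusted p values come from edgeR's quasi-likelihood test after Benjamini-Hochberg correction unless DESeq2 is named. The SE was derived as the absolute log2 fold change over the square root of that test's F statistic. It is approximate, most of all for genes near 0 reads in a group. A gene is said to have risen or fallen only at an adjusted p below 0.05 and at least a 2-fold difference. The median level of GC-rich minus that of GC-poor genes was 0.921, 0.969 and 0.824 log2 in WT a, b and c and 0.487, 0.442 and 0.819 in Col5a1CKO a, b and c. The groups thus did not overlap on it, but WT c and Col5a1CKO c were nearly level. Its part in the results below was not tested. On the first principal component, which held 59.6% of the variance, WT c lay at 7.7, nearer to the Col5a1CKO wounds (37.9 to 56.6) than WT a (-42) and WT b (-107.8). WT c thus lay between the groups, and results are also given without it. Leaving out a WT wound picked for lying near Col5a1CKO widens the gap between the groups. Counts without WT c are therefore no independent support. The Y-linked genes Ddx3y (46.7 CPM), Eif2s3y (59.5), Kdm5d (21.7) and Uty (13.5) were present in WT a, with Xist at 0.789 CPM, while the other 5 wounds had Xist at 539 to 736 CPM and no Y-linked gene above 0.32 CPM. By these genes all 3 Col5a1CKO wounds came from females, so sex was not balanced between the groups, and leaving out WT a compares wounds of 1 sex. A figure legend of the study instead gives 1 male and 2 females for each day 19 group. The Col5a1CKO libraries thus differ from the stated sexes, and the reason is not known. Keratinocyte, fibroblast, endothelial and macrophage markers were detected in all 6 wounds. In bulk tissue, fewer cells of a type and less RNA per cell cannot be told apart.

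Col5a1 itself was read first. Its level was 2826, 519 and 6089 CPM in the WT wounds and 1242, 992 and 680 CPM in the Col5a1CKO wounds, with a log2 fold change of -1.69 (SE 0.87) and an adjusted p of 0.272, and the groups overlapped because WT b was low. Collagen genes as a whole were low in WT b, so Col5a1 was also set against Col1a1 of the same wound, a ratio chosen after seeing the data. The ratio was 0.138, 0.106 and 0.127 in WT and 0.0188, 0.0157 and 0.0144 in Col5a1CKO, with means of 0.124 ± 0.0162 and 0.0163 ± 0.00226 (SD, n = 3 each). This is a 7.60-fold difference without overlap, at the exact permutation p of 0.1, two-sided, which is the smallest that 3 against 3 allows. Against Col1a2 and Col3a1 the difference was 7.28-fold each. Col5a2, which encodes the partner chain of the collagen V heterotrimer, had a ratio to Col1a1 of 0.0857 in WT and 0.124 in Col5a1CKO without overlap (exact permutation p = 0.1), and the ratio of Col5a3, a further chain, overlapped (exact permutation p = 0.5).

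Across all genes tested, 3 rose in Col5a1CKO (0.0198%) and 0 fell (0%). At an unadjusted p below 0.05 and at least 2-fold, edgeR gave 815 genes higher (5.38%) and 943 lower (6.23%), and DESeq2 gave 684 higher (4.52%) and 713 lower (4.71%) after adjustment. The Col5a1CKO wounds lay entirely above the WT wounds for 2718 genes (18%) and entirely below them for 2604 (17.2%). With WT c left out, 412 genes rose (2.66%) and 600 fell (3.88%) of 15468 tested, whereas leaving out any other wound gave 0 in both directions. The log2 fold change was positive for 49.4% of genes and its median was -0.01, or -0.39 when libraries were scaled by their size alone. The split then moved to 427 genes higher and 2138 lower at an unadjusted p below 0.05. Counts of gene lists below are to be read against these shares.

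The genes that rose were Rgs16, Cnn1 and Prm1, the last by reads whose origin is uncertain. Cnn1, calponin 1, is an actin-binding protein of differentiated smooth muscle that is also made by myofibroblasts (transcript NM_009922, NCBI37/mm9 chr9:21903725-21914074, plus strand). It was at 5.48, 6.46 and 4.41 CPM in WT and 113, 73.5 and 71.1 CPM in Col5a1CKO, or 5.45 ± 1.02 against 85.7 ± 23.3 CPM (SD, n = 3 each). Every Col5a1CKO wound lay far above the highest WT wound. The log2 fold change was 3.97 (SE 0.28, adjusted p = 0.0355), and the adjusted p was 0.101 with libraries scaled by size alone. Rgs16, a GTPase-activating protein that shortens signalling from G protein-coupled receptors (NM_011267, chr1:155587479-155592598, plus strand), was at 7.39, 7.81 and 8.94 CPM in WT and 101, 79.6 and 87.7 CPM in Col5a1CKO. Its means were 8.05 ± 0.80 and 89.4 ± 10.8 CPM (SD, n = 3 each), with a log2 fold change of 3.47 (SE 0.17, adjusted p = 0.00953). The rise was 11.1-fold, and without WT a, WT b or any 1 Col5a1CKO wound the adjusted p lay between 0.0677 and 0.181. Across the RGS family, 19 members were tested with a median log2 fold change of 0.17, which turned to -0.15 with scaling by library size alone. Of these 7 lay above WT without overlap and 1 below (18% and 17.2% of all genes did), so the family did not move as a block.

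Prm1, protamine 1, packs DNA in sperm heads and is not a known product of skin (NM_013637, chr16:10796419-10796979, minus strand). The WT wounds held 1, 2 and 1 reads of it and the Col5a1CKO wounds 169, 147 and 178, or 4 against 494 over the group. The ratio at equal depth was 154, with a 95% exact interval of 59.8 to 567 that covers counting error only, and the adjusted p was 0.00953. Day 14 wounds showed the same split, on a scale common to both days, with 0 to 0.067 CPM in the 7 WT and 2.36 to 5.12 in the 7 Col5a1CKO wounds. The 3 day 14 Col5a1CKO wounds that received fibroblasts held 3.19 to 5.89 CPM. Other genes of sperm formation did not share this pattern: Prm2, Prm3, Tnp1, Tnp2 and Odf1 were too low to be tested, and Odf2, also made outside the testis, had a log2 fold change of 0.02. Prm1 levels thus separated the Col5a1CKO and WT wounds of both days without overlap. Some transgenes carry the end of the protamine 1 gene as a polyadenylation signal, and whether this Cre transgene does is not given in the sources used here. Reads from the Prm1 gene and from such a transgene cannot be told apart in these counts, so the rise is one of reads assigned to Prm1.

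**Figure D1:**
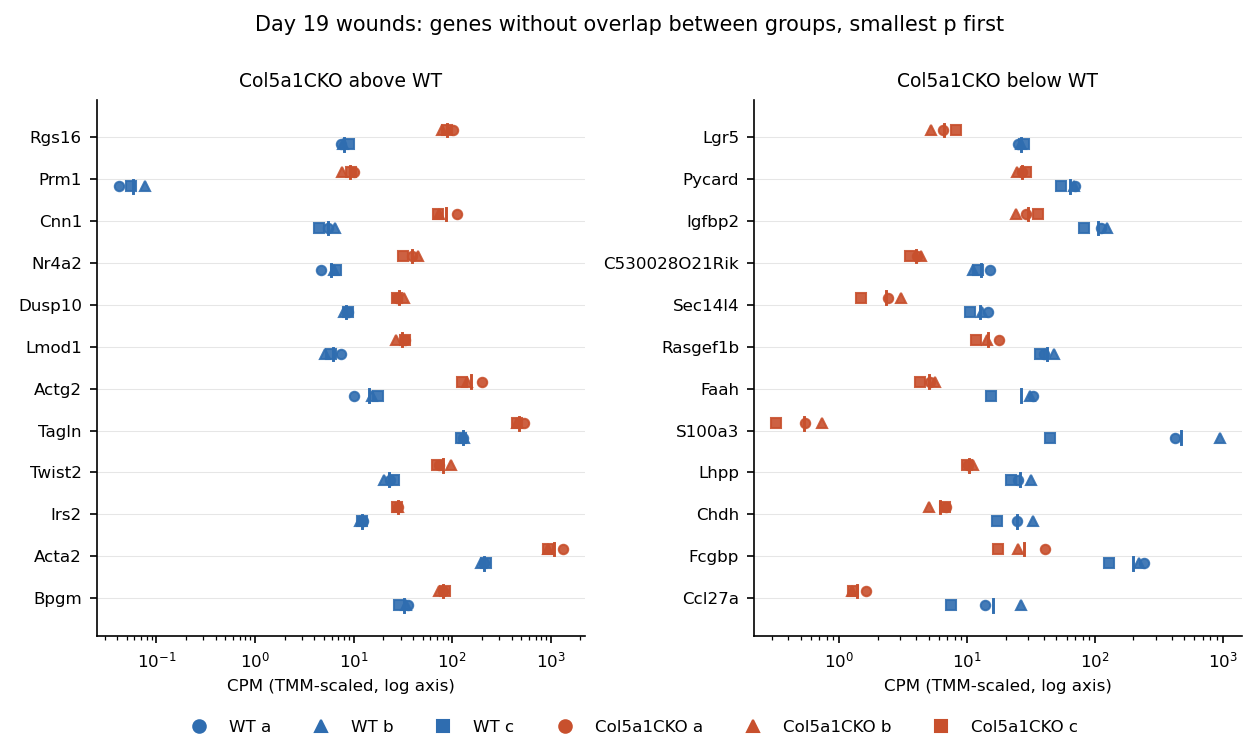
CPM of each wound (log axis; points are single wounds, WT a to c and Col5a1CKO a to c) for the genes with the smallest p among those whose groups did not overlap, Col5a1CKO above WT on the left and below on the right. Cnn1 sits at 4.41 to 6.46 in the WT wounds and at 71.1 to 113 in the others, and for S100a3 the WT wounds themselves spread from 44.5 to 948.

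Contractile genes as a group lay above WT. Of 23 listed genes of smooth muscle and myofibroblasts, 22 were tested and 21 had a positive log2 fold change. Of the 22 tested, 17 lay above WT without overlap (18% of all genes did) and 1, Cnn1, rose. The median log2 fold change was 1.43 against -0.01 over all genes tested, and DESeq2 called 15 of the 22 higher (4.52% of all genes). Their summed level was 4119, 2830 and 4133 CPM in WT and 9642, 8779 and 14852 CPM in Col5a1CKO. Without WT c, 11 rose by edgeR (2.66% of all genes), and without any other wound none did.

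Acta2, the smooth muscle actin that defines myofibroblasts, was at 211, 197 and 219 CPM in WT and 1318, 940 and 945 CPM in Col5a1CKO (log2 fold change 2.35, SE 0.27, adjusted p = 0.11). Actg2, the gamma actin of visceral smooth muscle, was at 10.1, 15.4 and 17.8 CPM in WT and 203, 140 and 124 CPM in Col5a1CKO (3.43, SE 0.31, adjusted p = 0.0761). Lmod1, leiomodin 1, which starts actin filaments in smooth muscle, was at 7.51, 5.15 and 5.85 against 33.5, 27.0 and 33.3 CPM (2.34, SE 0.22, adjusted p = 0.0761). In each of these genes the 3 WT wounds lay close together and WT c did not approach the Col5a1CKO wounds, yet none passed the threshold in edgeR. These genes were among those picked by lack of overlap and small p, which favors such an order. Tagln, transgelin, was at 129, 133 and 122 CPM in WT and 535, 449 and 450 CPM in Col5a1CKO (1.90, SE 0.19, adjusted p = 0.0974). Myh11, the smooth muscle myosin heavy chain, was at 53.5, 39.3 and 58.8 against 150, 111 and 153 CPM (1.45, SE 0.22, adjusted p = 0.11). Myh11 marks vessel walls and the arrector pili as well as contractile fibroblasts, and the bulk counts do not separate them. The groups overlapped for 5 of the 22 tested, among them Des, Synpo2 and Tpm2, which skeletal muscle also expresses. Skeletal muscle genes themselves summed to 6376, 538 and 933 CPM in WT and 1217, 5675 and 63287 CPM in Col5a1CKO, so Col5a1CKO c held far more muscle RNA than any other wound. Its part in the 3 overlapping genes was not tested, and the groups overlapped for all 18 skeletal muscle genes.

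The promoters of these genes are shown because the contractile members lay above WT together. The sequences are from RefSeq on GRCm38.p6 and run from 250 bases before to 50 bases after the gene start, on the strand of the gene, with the letters CATTCC, the core of the MCAT element, in capitals on either strand (GGAATG when reversed).
Cnn1, chr9:22099003-22099302, plus strand: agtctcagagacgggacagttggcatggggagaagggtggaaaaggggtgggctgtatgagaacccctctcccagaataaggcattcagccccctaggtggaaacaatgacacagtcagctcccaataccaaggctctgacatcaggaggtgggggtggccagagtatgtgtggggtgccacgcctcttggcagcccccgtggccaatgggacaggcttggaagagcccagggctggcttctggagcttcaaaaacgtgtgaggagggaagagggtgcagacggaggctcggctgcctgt
Acta2, chr19:34255324-34255623, minus strand: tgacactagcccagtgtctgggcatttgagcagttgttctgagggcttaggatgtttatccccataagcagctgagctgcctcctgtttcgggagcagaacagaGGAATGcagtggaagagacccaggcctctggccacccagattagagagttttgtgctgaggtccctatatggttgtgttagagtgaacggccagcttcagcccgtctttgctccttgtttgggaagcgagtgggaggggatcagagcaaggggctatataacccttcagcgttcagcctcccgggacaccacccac
Lmod1, chr1:135324563-135324862, plus strand: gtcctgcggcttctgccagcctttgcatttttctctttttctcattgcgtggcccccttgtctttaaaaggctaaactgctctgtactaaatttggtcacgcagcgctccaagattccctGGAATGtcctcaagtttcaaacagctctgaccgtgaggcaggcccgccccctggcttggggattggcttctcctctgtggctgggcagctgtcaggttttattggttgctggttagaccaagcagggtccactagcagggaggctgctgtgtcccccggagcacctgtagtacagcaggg
Rgs16, chr1:153740103-153740402, plus strand: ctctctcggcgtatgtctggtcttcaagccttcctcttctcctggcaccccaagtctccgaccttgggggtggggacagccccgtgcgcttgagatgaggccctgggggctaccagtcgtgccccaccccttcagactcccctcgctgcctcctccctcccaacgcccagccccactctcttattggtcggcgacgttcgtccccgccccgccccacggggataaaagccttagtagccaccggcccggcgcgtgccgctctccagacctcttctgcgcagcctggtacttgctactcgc

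Acta2 and Lmod1 hold the letters once each on the reverse strand, and Cnn1 and Rgs16 hold none in this window. Promoters were matched for 19 of the 23 contractile genes, and 9 of them (47.4%) held CATTCC on either strand, against 14.7% of all 32851 promoters. A listed gene counted once if any of its promoters held the letters, whereas the share of all promoters counts single promoters. A gene with several promoters thus had more chances, and the shares are not in the same unit. The 9 were Acta2, Cald1, Flna, Hspb1, Lmod1, Mylk, Pdlim3, Smtn and Tpm1, of which Hspb1 (log2 fold change -0.19) and Pdlim3 overlapped between the groups. The CArG box, searched only as CCWWWWWWGG with W for A or T, was found in 1 of the 19, Myl9, against 1.63% of all promoters. The Acta2 sequence above holds ccctatatgg and ccttgtttgg, which each differ from this pattern by 1 base and were not counted. The AP-1 site was found in 2 of the 19 (5.2% of all promoters), and TGACGTCA, the full cyclic AMP element, in 1 (1.79%). A match describes letters in a window of 300 bases and not a bound site, and no match says only that the letters are not in this window.

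Other genes with the smallest p among those above WT included regulators of transcription and signalling. Nr4a2, an orphan nuclear receptor of the immediate early response, was at 4.69, 6.31 and 6.57 CPM in WT and 39.6, 45.4 and 31.5 CPM in Col5a1CKO (log2 fold change 2.73, SE 0.23, adjusted p = 0.0721). Dusp10, a phosphatase that switches off p38 and JNK kinases, was at 8.68, 7.97 and 8.72 against 27.4, 32.7 and 27.3 CPM (1.78, SE 0.16, adjusted p = 0.0761). Twist2, a transcription factor of dermal fibroblasts, was at 23.5, 20.3 and 25.4 against 73.4, 97.4 and 70.8 CPM (1.80, SE 0.19, adjusted p = 0.11). All 3 had WT wounds within a narrow range and every Col5a1CKO wound above it, an order that picking genes by lack of overlap and small p favors. Irs2, an adaptor of the insulin receptor, was at 12.4, 11.6 and 12.1 against 28.0, 28.4 and 27.7 CPM (1.22, SE 0.14, adjusted p = 0.11). Bpgm, which makes 2,3-bisphosphoglycerate and is abundant in red cells, was at 35.7, 33.7 and 28.9 against 81.6, 73.8 and 85.4 CPM (1.29, SE 0.15, adjusted p = 0.11). Red cell RNA, summed over 5 globin and heme genes of which the paired globins carry identical counts, came to 19.9, 27.8 and 58.8 CPM in WT and 271, 57.3 and 107 CPM in Col5a1CKO, overlapping between WT c and Col5a1CKO b. Its part in the level of Bpgm was not tested.

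Genes of the hair shaft were present in WT wounds and at or near 0 in Col5a1CKO wounds. All 15 keratins of the hair shaft lay below WT without overlap (17.2% of all genes did). Their median log2 fold change was -9.60, or -9.41 with genes at 0 in Col5a1CKO set to their bound, a choice added after seeing the data. Their summed level was 1624, 3069 and 133 CPM in WT and 2.95, 4.11 and 2.24 CPM in Col5a1CKO. WT c held far less than WT a and WT b and yet far more than any Col5a1CKO wound. The 10 listed genes of the inner root sheath and companion layer, the sleeve that guides the growing shaft, also lay below WT without overlap (median -8.78, or -8.15 at the bound), with sums of 6868, 8011 and 490 against 40.4, 23.4 and 12.7 CPM. Keratin-associated proteins, which crosslink the keratins of the shaft, were tested for 28 of 52 genes. All 28 lay below WT without overlap, 15 of them with 0 reads in every Col5a1CKO wound (median -10.91, or -9.18 at the bound), and sums were 2125, 2103 and 69.5 against 0.6, 1.04 and 1.28 CPM. The genes that passed the filter did so through the WT wounds. No gene of these lists fell by edgeR (0% of all genes), and the adjusted p of the hair shaft keratins ran from 0.11 to 0.157. DESeq2 called all 15, 10 and 28 of them lower (4.71% of all genes). With WT c left out, edgeR called 15, 9 and 28 lower (3.88% of all genes), and with any other wound left out it called none. Near-identical members of the keratin and keratin-associated families may share reads, so single members are less certain than the families.

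Krt31, a type I keratin of the shaft cortex, was at 143, 304 and 9.55 CPM in WT and 0.0601, 0.104 and 0 CPM in Col5a1CKO, or 11467 against 3 reads over the group. The ratio was 3065, with an exact 95% interval of 1049 to 14870 for counting error. Krt33b, a close relative of Krt31, had 6830 reads in WT and 0 in Col5a1CKO and was at least 1826-fold lower against a floor of 3 reads over the group. Krt71, a keratin of the inner root sheath whose mutation gives curly coats, was at 2099, 2291 and 119 against 1.08, 3.85 and 0.694 CPM (log2 fold change -9.64). Krtap15 and Krtap14 were at least 1855-fold and 1191-fold lower. S100a3, a calcium-binding protein of the hair cuticle, was at 427, 948 and 44.5 against 0.541, 0.729 and 0.32 CPM (-9.78, SE 1.41, adjusted p = 0.11). Among Krt31, Krt71 and S100a3, WT c was the lowest WT wound each time, and the Col5a1CKO wounds were near 0.

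Promoters of 9 hair shaft keratins were matched in RefSeq (GRCm38.p6), and those holding CTTTGAAG, the letters of a LEF1 site known from hair keratin genes, are shown with these letters in capitals (CTTCAAAG when on the reverse strand). Krt31 is given from 250 bases before to 50 after the gene start and the others as the stretch around the letters.
Krt31, chr11:100050502-100050801, minus strand: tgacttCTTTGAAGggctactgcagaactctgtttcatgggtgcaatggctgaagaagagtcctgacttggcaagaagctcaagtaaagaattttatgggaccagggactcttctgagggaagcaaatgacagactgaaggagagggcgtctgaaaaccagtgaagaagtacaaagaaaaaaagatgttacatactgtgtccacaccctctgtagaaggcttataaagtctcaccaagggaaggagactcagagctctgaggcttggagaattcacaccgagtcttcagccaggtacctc
Krt32, chr11:100088483-100088519, minus strand: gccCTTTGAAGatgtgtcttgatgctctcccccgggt
Krt33b, chr11:100030082-100030118, minus strand: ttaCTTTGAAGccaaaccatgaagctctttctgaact
Krt34, chr11:100041761-100041804, minus strand: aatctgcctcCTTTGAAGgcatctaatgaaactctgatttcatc
Krt39, chr11:99521325-99521384, minus strand: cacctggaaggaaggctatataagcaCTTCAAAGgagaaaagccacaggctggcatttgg

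The letters were found in these 5 of 9 hair shaft keratins (55.6%), in 6 of 40 keratin-associated genes (15%) and in 0 of 19 contractile genes, against 1.66% of all promoters. Lists were again counted by gene and all promoters singly, which makes no difference for the 9 hair shaft keratins, as they had 9 promoters. In Krt31, Krt32, Krt33b and Krt34 they start 240 to 247 bases before the gene start, and in Krt39 20 bases before it. These genes lie in the type I keratin cluster and are of common descent, so their promoters are not independent examples.

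Regulators of the follicle showed the same order. Of 25 listed signals and transcription factors of the follicle, 23 lay below WT without overlap (17.2% of all genes did), with a median log2 fold change of -3.58 and summed levels of 1568, 3476 and 502 against 263, 259 and 230 CPM. Shh, the morphogen that drives follicle downgrowth, had 1217 reads in WT and 6 in Col5a1CKO, a ratio of 163 with an interval of 74.5 to 444. Hoxc13, a homeobox factor that switches on hair keratins, was at 55, 154 and 9.82 against 1.2, 1.09 and 0.64 CPM (-6.22). Lgr5, a Wnt co-receptor that marks follicle stem cells, was at 25.0, 26.2 and 28.1 against 6.43, 5.20 and 8.16 CPM (-2.00, SE 0.22, adjusted p = 0.11). Lgr5 differed from the shaft genes in that WT c was level with WT a and b. Melanocyte genes, whose cells colour the growing shaft, lay below WT without overlap for 8 of 8 (median -6.78), with sums of 445, 1607 and 140 against 24.3, 29.9 and 17.6 CPM. Tyr, the first enzyme of melanin synthesis, had 3073 against 9 reads, a ratio of 274 with an interval of 144 to 599. Sebaceous gland genes lay below WT without overlap for 9 of 12 (median -1.89), with summed levels of 1386, 1550 and 1213 against 533, 645 and 411 CPM. Here the 3 WT wounds, WT c included, were alike. Cidea, a lipid droplet protein of the gland, was at 9.71, 18.5 and 9.82 against 3.61, 3.49 and 2.19 CPM. It is also listed here as an adipocyte gene, and that list had a median of -0.02.

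**Figure D2:**
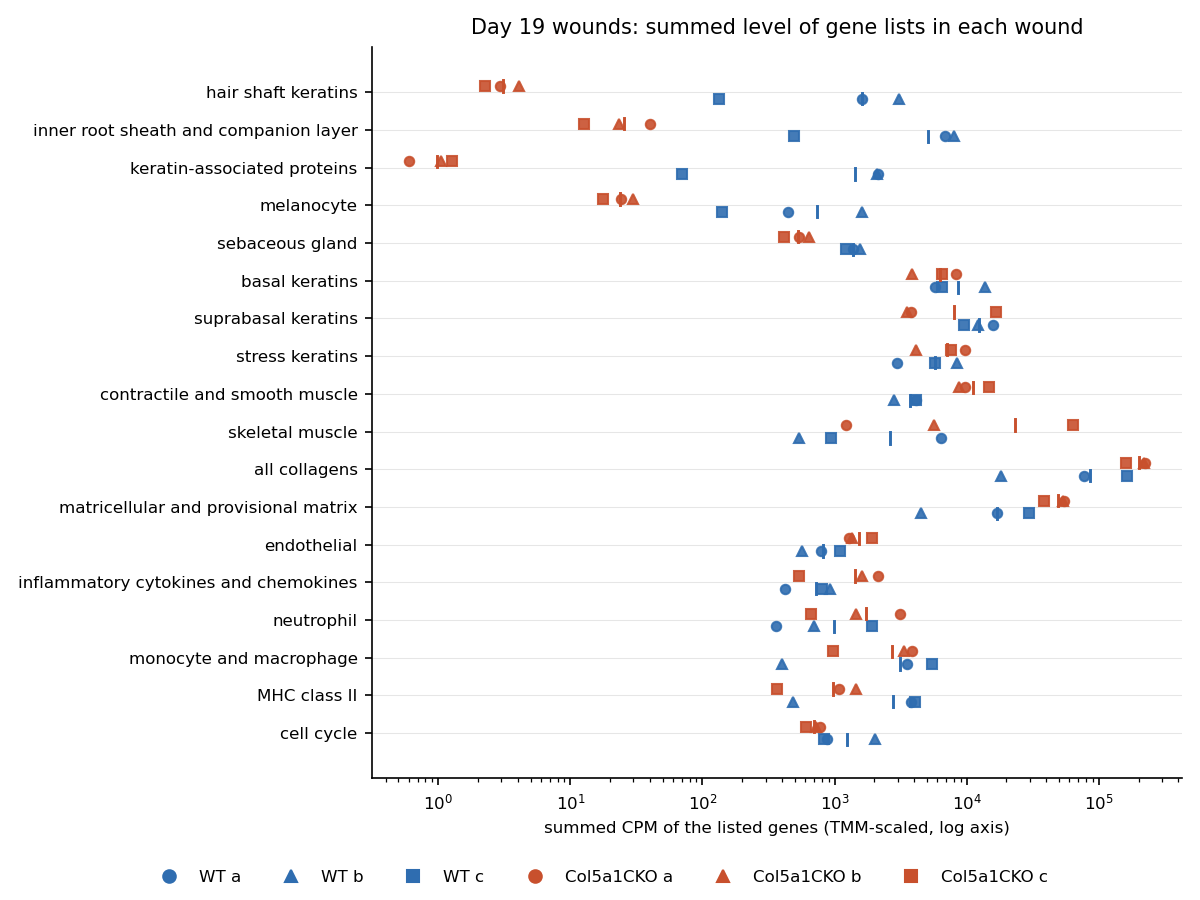
Summed CPM of each gene list in each wound (log axis; points are single wounds). Hair shaft keratins sum to between 133 and 3069 in WT wounds and between 2.24 and 4.11 in Col5a1CKO wounds, contractile genes to 2830 to 4133 and 8779 to 14852 CPM, and macrophage genes overlap.

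Genes of the interfollicular epidermis were mixed, and their counts stand against 18% of all genes above WT without overlap and 17.2% below. Basal keratins summed to 5768, 13644 and 6552 CPM in WT and 8331, 3863 and 6542 CPM in Col5a1CKO and overlapped. Krt14, the basal type I keratin, had a log2 fold change of -0.14, and Krt5, its partner, of -1.23. Krt15, which is basal but enriched in the follicle bulge, was at 291, 566 and 82.7 against 19.9, 20 and 36.2 CPM (-3.62, SE 0.75, adjusted p = 0.112), and it was the 1 basal keratin without overlap. The stress keratins of wounded epidermis, Krt6a (0.56), Krt6b (0.54), Krt17 (0.09) and Krt16 (0.05), overlapped between the groups. Their median log2 fold change of 0.32 turned to -0.11 with scaling by library size alone, and Krt6a with Krt6b and Krt14 with Krt16 and Krt17 are close paralogs that may share reads. Among 8 suprabasal keratins tested the median was -1.18 and 1 lay below WT without overlap, with sums of 15696, 12171 and 9527 against 3782, 3558 and 16638 CPM. Col5a1CKO c thus held as much suprabasal keratin RNA as the WT wounds, and the other Col5a1CKO wounds less, and the median was -2.63 without Col5a1CKO c and -0.72 without Col5a1CKO a. The cornified envelope list had a median of -0.63 over 45 genes tested, with 1 above and 2 below WT without overlap (median -1.30 without Col5a1CKO c and -0.23 without WT b), and desmosome genes a median of -0.48 with 0 in either direction. Epidermal transcription factors had a median of -1.47 over 13 genes, of which 4 lay below WT without overlap and 1 above, and DESeq2 called 6 lower (4.71% of all genes). Grhl2, which controls epithelial adhesion and barrier genes, was at 28.9, 65.1 and 11.9 against 8.3, 5.78 and 6.51 CPM (-2.36), and Tfap2a, AP-2 alpha, was at 80.8, 185 and 43.4 against 28.0, 18.5 and 26.8 CPM (-2.08). Krt79, found in the follicle opening and gland duct, was at 511, 383 and 224 against 46.3, 54.5 and 3.68 CPM (-3.42), and Alox12e, an epidermal lipoxygenase, at 138, 103 and 79.6 against 9.98, 4.84 and 0.64 CPM (-4.38).

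**Figure D3:**
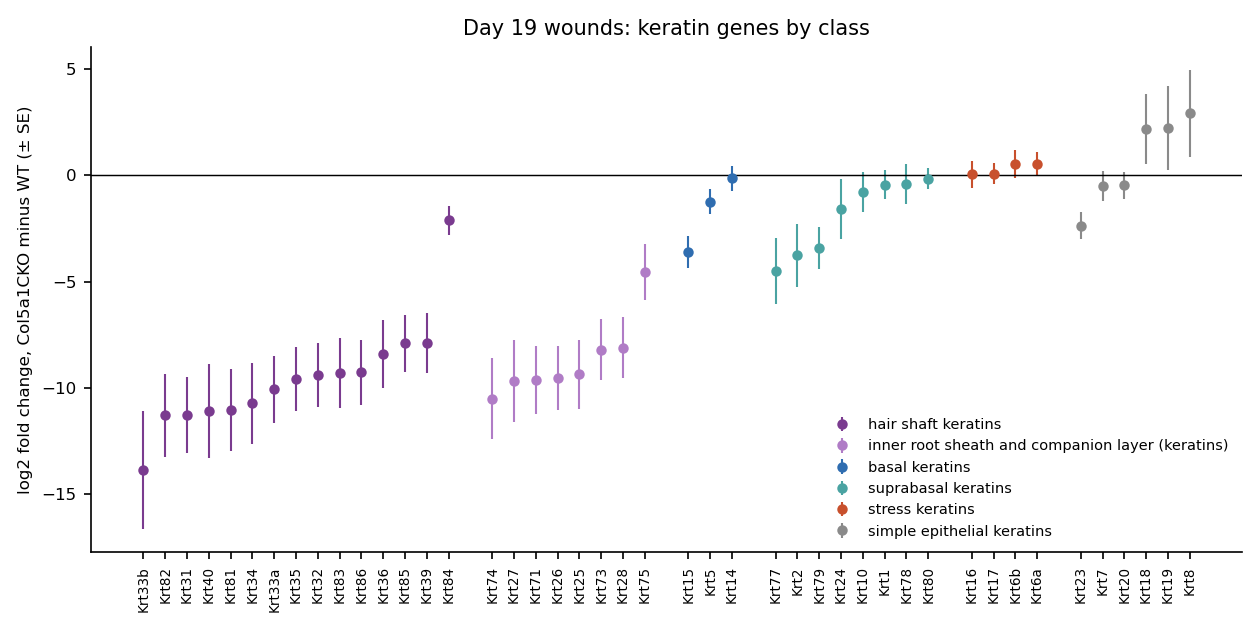
Log2 fold change (Col5a1CKO minus WT, points, with bars of the SE derived from the F statistic) of the keratin genes by class. Hair shaft keratins lie between -13.87 for Krt33b and -2.12 for Krt84, while the stress keratins Krt6a, Krt6b, Krt16 and Krt17 lie between 0.05 and 0.56.

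Other genes with the smallest p among those below WT were less tied to the follicle by name. Igfbp2, a binding protein of insulin-like growth factors, was at 112, 125 and 82.1 CPM in WT and 29.0, 24.3 and 35.9 CPM in Col5a1CKO (log2 fold change -1.84). Pycard, the inflammasome adaptor ASC, was at 70.2, 68.6 and 54.4 against 26.8, 24.6 and 28.7 CPM (-1.27). Faah, which breaks down the endocannabinoid anandamide, was at 32.8, 30.9 and 15.5 against 5.11, 5.57 and 4.32 CPM (-2.40). In all 3 the Col5a1CKO wounds were within a narrow range below the lowest WT wound, which was WT c. Picking genes by lack of overlap and small p favors this order too. Fcgbp, a mucin-like secreted protein, was at 244, 219 and 128 against 40.7, 24.8 and 17.5 CPM (-2.83), and Ccl27a, a chemokine of keratinocytes that attracts skin-homing T cells, at 13.8, 26.2 and 7.56 against 1.62, 1.25 and 1.28 CPM (-3.52, SE 0.52). Chdh, the choline dehydrogenase of mitochondria, was at 24.5, 32.8 and 17.2 against 6.79, 5.05 and 6.67 CPM (-2.01). Sec14l4 (-2.46), Rasgef1b (-1.52), Lhpp (-1.33) and C530028O21Rik (-1.68) completed the set, and the adjusted p was 0.11 for every gene of this paragraph.

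Matrix genes lay above WT in part, with wide spread among the WT wounds. Among the collagens, 40 genes were tested, of which 32 had values above 0 and 17 lay above WT without overlap with none risen or fallen by edgeR (median 1.21), and summed collagen levels were 76963, 18153 and 163701 against 224461, 219004 and 159861 CPM. The sums overlapped, since WT c exceeded Col5a1CKO c, and WT b lay far below all other wounds. Col12a1, a collagen that decorates the surface of fibrils, was at 1335, 224 and 3794 against 13159, 11749 and 7709 CPM (2.61, SE 1.04, adjusted p = 0.2). Col25a1, a transmembrane collagen, was at 2.86, 1.66 and 4.41 against 20.7, 14.1 and 12.3 CPM (2.40, SE 0.43, adjusted p = 0.11). Of 11 basement membrane genes 7 lay above WT without overlap, with sums of 3358, 2465 and 6352 against 10230, 9075 and 9513 CPM, among them Col4a1 (1.32). Enzymes that process and crosslink collagen had 12 of 22 above WT without overlap (median 1), including Plod2 (1.87), a lysyl hydroxylase raised in fibrosis. Small leucine-rich proteoglycans had 4 of 11 (median 0.70) and elastic fiber genes 5 of 16 (median 0.67), both read against 18% of all genes. These medians rested on single WT wounds, being 1.92 and 1.10 without WT c and 0.28 and 0.37 without WT b.

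Matricellular proteins signal to cells rather than bear load. They were listed together with provisional matrix genes such as Fn1 and with the hyaluronan synthases Has1, Has2 and Has3. This joint list had the higher values of the matrix lists. Of its members, 10 of 16 lay above WT without overlap (18% of all genes did), with a median of 1.54. Thbs1, thrombospondin 1, an activator of latent TGF-beta, was at 173, 227 and 453 CPM in WT and 4089, 3642 and 1588 CPM in Col5a1CKO (3.45). Ctgf, a matricellular target of TGF-beta and YAP, was at 146, 31.5 and 61.4 against 1034, 876 and 646 CPM (3.42, SE 0.63, adjusted p = 0.11). Cyr61, its relative, was at 108, 48.2 and 125 against 739, 589 and 756 CPM (2.89, SE 0.42, adjusted p = 0.11). In these 3 genes every Col5a1CKO wound lay well above the highest WT wound. Tnc, tenascin C of the provisional matrix, was at 663, 208 and 1558 against 8460, 8924 and 5837 CPM (3.26, SE 0.83, adjusted p = 0.131).

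Proteases with their inhibitors and TGF-beta genes showed the same order in part. Over all genes, 18% lay above WT without overlap and 17.2% below. Serpine2, protease nexin 1, an inhibitor of thrombin, was at 59.4, 63.3 and 116 against 376, 453 and 288 CPM (2.22). Matrix metalloproteinases had 7 of 17 tested genes above WT without overlap (median 0.94). Mmp10, stromelysin 2, was at 1.58, 2.32 and 3.92 against 71.7, 52.0 and 18.0 CPM (4.19, SE 0.64), and Mmp13, a collagenase, at 17.2, 18.9 and 40.1 against 331, 466 and 139 CPM (3.62, SE 0.59). Mmp12, the elastase of macrophages, had a negative value of -2.30 with overlap, at 389, 16.5 and 240 against 49.6, 49.9 and 31.6 CPM. All 12 ligands, receptors and targets of TGF-beta had positive values (median 0.91) and 6 did not overlap. Inhba, the activin A subunit, was at 7.89, 16.1 and 17.9 against 116, 89.1 and 52.3 CPM (2.62, SE 0.43), and Tgfb2 at 23.0, 12.2 and 39.8 against 156, 151 and 90.1 CPM (2.41, SE 0.48). Integrins, the receptors that couple matrix to actin, lay above WT without overlap for 12 of 25 (median 0.59), among them Itga5, the fibronectin receptor chain, at 196, 80.2 and 310 against 869, 740 and 549 CPM (1.88), and Itgav at 68.1, 47.5 and 95.6 against 239, 202 and 127 CPM (1.43). The adjusted p of Mmp10, Mmp13, Inhba and Tgfb2 was 0.11 and that of Itga5 0.139 and Itgav 0.13. Fibroblast marker genes had a median of 0.67, with 4 of 13 above and 1 below WT without overlap and sums of 2371, 677 and 2610 against 2325, 2862 and 2030 CPM, so the share of fibroblast RNA overlapped between the groups while WT b held less of it. Its part in the matrix values was not tested.

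**Figure D4:**
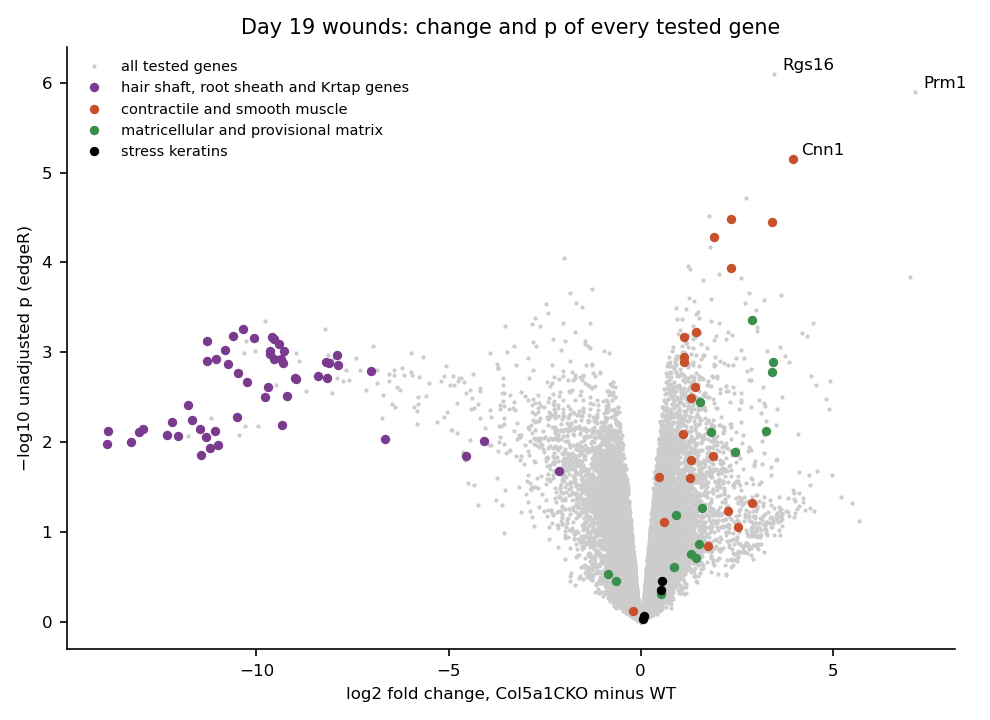
Log2 fold change (Col5a1CKO minus WT) against the negative log10 of the unadjusted edgeR p for the 15135 genes tested, with gene lists in colour. Rgs16, Prm1 and Cnn1 are the genes past the adjusted threshold, and hair shaft keratins lie far to the left with smaller -log10 p.

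Vessel genes lay above WT and immune genes mostly overlapped. Their counts are to be read against 18% of all genes above WT without overlap and 17.2% below. Of 11 endothelial genes 8 lay above WT without overlap (median 0.96), with sums of 787, 566 and 1097 against 1284, 1363 and 1928 CPM, including Flt1, a receptor of VEGF, at 25.7, 15.7 and 41.8 against 71.9, 73.3 and 93.9 CPM (1.52). Vegfa itself was at 41.9, 64.3 and 67.5 against 142, 109 and 125 CPM (1.12, SE 0.23, adjusted p = 0.112). Pericyte genes had 3 of 8 above WT without overlap (median 0.68). Monocyte and macrophage genes overlapped for all 15 (median 0.36, sums 3557, 399 and 5443 against 3875, 3367 and 966 CPM), as did all 10 neutrophil genes tested (median 1.09) and all 11 genes of MHC class II (median -1.43). The lowest wound in the macrophage sums was WT b and the next Col5a1CKO c, 1 of each group. Inflammatory cytokines and chemokines had 8 of 23 above WT without overlap (median 1.15). Il6 was at 0.332, 0.696 and 0.607 against 14.7, 18.1 and 2.51 CPM (4.42, SE 0.83, adjusted p = 0.11), and Cxcl1, which draws in neutrophils, at 1.20, 4.87 and 5.90 against 67.8, 65.3 and 18.7 CPM (3.67, SE 0.77, adjusted p = 0.114). In both genes Col5a1CKO c was the lowest of its group. Cell cycle genes had negative values for all 22, and 12 lay below WT without overlap (median -0.77, or -0.28 without WT b). Their sums were 875, 2014 and 832 against 773, 721 and 604 CPM. WT b, the wound with the most hair shaft keratin RNA, also held the most cell cycle RNA.

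The effect at day 19 was set beside that at day 14, when 7 WT and 7 Col5a1CKO wounds were sequenced. At day 14, 800 of 14367 genes rose (5.57%) and 390 fell (2.71%) by edgeR. Of 14240 genes tested on both days 70% had the same sign. Among 795 genes that rose at day 14, 681 (85.7%) were positive at day 19, and their median log2 fold change was 1.67 at day 14 and 0.71 at day 19. Among 383 that fell, 331 (86.4%) were negative at day 19, with medians of -1.45 and -0.58. Both sets were picked by their day 14 values, which makes the day 14 medians large by choice. The smaller day 19 medians therefore do not show a weaker effect at day 19. The wounds of the 2 days are different animals. No gene passed the test of a difference between the effects on the 2 days (0% of 15954, and 0 within the upper set of libraries described below), and 716 (4.49%) had an unadjusted p below 0.05 with at least a 2-fold difference.

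The day 14 libraries fell into a pair of sets by the GC dependence of their counts, with 4 WT and 5 Col5a1CKO wounds in the lower set and 3 WT and 2 Col5a1CKO wounds in the upper set, which also held every day 19 wound. Medians of both days were compared over the genes tested on both, with genes at 0 in a group set to their bound, a choice added after seeing the data. For 10 hair shaft keratins the median log2 fold change was -5.83 at day 14 (-8.47 within the upper set) and -9.50 at day 19, and for 14 keratin-associated proteins -5.74 (-8.61) and -9.43. The day 14 values were thus nearer to those of day 19 within the upper set, and the difference between days was not tested for a list. On a scale common to both days, Krt71 ranged from 5.84 to 3313 CPM in the 7 WT wounds of day 14 and from 1.09 to 22.5 CPM in Col5a1CKO wounds, with overlap between the groups. Cnn1 was at 0 to 19.4 CPM in day 14 WT wounds and at 18.5 to 101 in the Col5a1CKO wounds, overlapping slightly, and Rgs16 at 1.07 to 5.57 and 9.21 to 52.6 CPM without overlap. Medians of the stress keratins were -1.41 at day 14 (-0.73 within the upper set) and 0.32 at day 19, of neutrophil genes 3.67 (4.78) and 1.09, and of MHC class II genes 0.04 (0.48) and -1.43. Itgam, the CD11b chain of myeloid cells, had a day 19 minus day 14 difference of effect of -2.19 log2, and Ptprc, CD45, of -1.80, with adjusted p of 0.752 and 0.892 for the difference. A difference between the days was thus not shown for either gene.

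**Figure D5:**
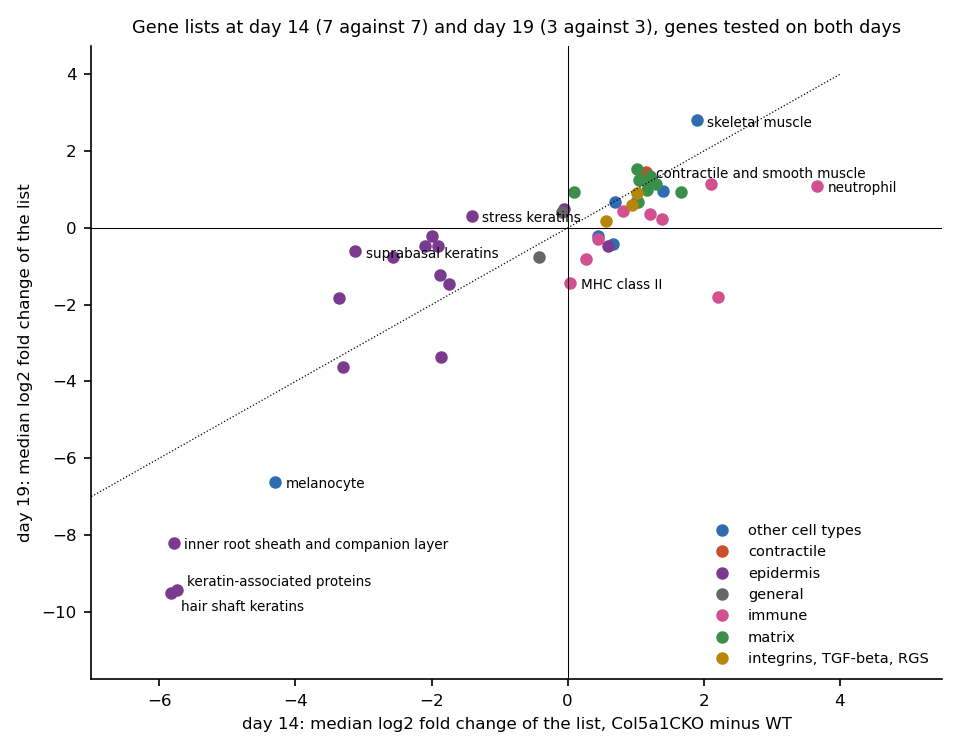
Median log2 fold change (Col5a1CKO minus WT) of each gene list at day 14 (horizontal, 7 against 7 wounds) and day 19 (vertical, 3 against 3), over genes tested on both days and all libraries of each day, with a dotted line where both are equal. Hair shaft keratins lie at -5.83 and -9.50 (-8.47 at day 14 within the upper library set) and neutrophil genes at 3.67 and 1.09.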

How the data were processed

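Wound RNA was sequenced as stranded 50-base single-end reads, and the authors aligned them with HISAT2 to NCBI37/mm9 and counted reads over RefSeq exons in SeqMonk. The deposited values are raw counts per RefSeq transcript. They are not normalized, and 30 rows without a gene name (at most 0.0657% of a library) were left out. For each of 22830 symbols the row with the highest total count was kept. Positions are from GENCODE vM1 on NCBI37 and promoters from RefSeq.

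Counts were filtered with filterByExpr (minimum count 10), scaled by TMM and tested with edgeR 4.0.16 (quasi-likelihood, robust, Benjamini-Hochberg) in R 4.3.3 on the 6 day 19 libraries. The effects of both days were compared by an interaction term. DESeq2 1.42.0, the tool of the study's methods, and limma 3.58.1 (voom) were alternatives. Python 3.11.15 with numpy 2.4.6, pandas 2.3.3, scipy 1.17.1 and matplotlib 3.10.9 made exact tests, intervals and plots. The scripts were tested on simulated data. Exact intervals cover counting error only.

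Genes named were those called, the 12 with the smallest p in each direction among genes without overlap and a mean RPKM of at least 1, up to 4 members of each list by size of change, and Col5a1, its fibril partners, basal and stress keratins and immune markers, of which 1 gene is not reported here. Genes named for a promoter or as the usual marker of a list were chosen after their values were seen. The comparison, its members and the 51 gene lists were chosen with earlier results of these data known.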

Additional observations from a re-analysis of the deposited data

How the results depend on the processing

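The counts of genes past the threshold depended on the model and on single wounds. Against 3 genes higher and 0 lower, DESeq2 gave 684 and 713, limma-voom 1 and 0, one fit over all 5 groups 1 and 0, one fit over the library set that holds day 19 gave 243 and 287, and the unadjusted p with 2-fold gave 815 and 943. Leaving out each wound in turn gave 0 to 412 higher and 0 to 600 lower, the upper ends coming from leaving out WT c and all other wounds giving 0. Scaling by DESeq2 size factors, testing every gene with a count, summing rows of a symbol and a fit without robust prior each gave 3 and 0. The study's 3-fold and RPKM limits also gave 3 and 0, but they were applied to the edgeR adjusted p and not to DESeq2, the study's tool. The difference between days was 0 genes, and 716 at the unadjusted p. The cause of these changes was not tested.

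Replicate letters a, b and c are shared by the groups, but same-lettered wounds did not deviate together (correlations -0.319, -0.402 and -0.414, and 0 of 6 wounds correlated best with its own letter), so they share only a letter. The fit with the letter as a replicate block gave 0 genes higher and 7 lower.

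Of 118 genes followed through the alternatives, 113 kept 1 direction under all 16. Medians were followed only with DESeq2 size factors, with library size alone and with each wound left out in turn. Of 51 medians, that of all genes tested included, 42 did not reverse. Leave-one-out ranges crossed 0 for Krt14 (-0.43 to 0.32), Krt16 (-0.34 to 0.48), Krt17 (-0.45 to 0.36), Ptprc (-0.13 to 1.11) and Itgam (-0.09 to 1.16). With libraries scaled by size alone Krt16 was -0.37 and Krt17 -0.35, over all 5 groups they were -0.03 and -0.01, and over the upper library set Krt16 was -0.01. The medians that crossed 0 when 1 wound was left out were those of simple epithelial keratins (-1.74 to 1.34), epidermal kallikreins and inhibitors (-0.43 to 0.08), adipocyte (-1.82 to 0.35), monocyte and macrophage (-0.13 to 0.73), mast cell (-0.81 to 0.04), interferon-stimulated (-0.55 to 1.14) and complement genes (-0.28 to 0.65). Other medians kept their sign but moved with 1 wound, among them skeletal muscle (0.11 without Col5a1CKO c), the fibrillar collagens (0.79 without WT b, 2.00 without WT c), inflammatory cytokines (0.49 without Col5a1CKO a) and neutrophil genes (0.58 without WT a, 1.88 without WT c). With library size alone the medians of stress keratins (-0.11), the RGS family (-0.15) and complement (-0.09) turned negative. Leaving out 1 wound leaves 2 in that group, and 3 against 3 limits every test here.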

Other observations

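Other lists were mixed. Hemidesmosome and laminin-332 genes had a median log2 fold change of 0.49, with 3 of 9 above WT without overlap, and epidermal lipid barrier enzymes -0.48, with 2 of 16 below, and their sums did not overlap (915 to 1182 CPM in WT wounds, 704 to 908 in Col5a1CKO wounds). Protease control genes (TIMPs, plasminogen activators and serpins) had a median of 1.25, with 7 of 14 above WT without overlap. The collagens VI, VIII, XII, XIV and XVI had 5 of 11 above (median 1.24), and collagen V with the fibrillar collagens 3 of 10 (median 1.27). Epidermal kallikreins and inhibitors had a median of -0.20, simple epithelial keratins 0.87 and adipocyte genes -0.02, with single members not overlapping. Hypoxia and glycolysis genes had a median of 0.41, with 3 of 19 above WT without overlap and 1 below. The shares over all genes were 18% above WT without overlap and 17.2% below.

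Among immune lists, T and cytotoxic lymphocyte genes had a median of -0.81 over 17 genes tested, B and plasma cell genes -1.81 over 2, mast cell genes -0.30 over 7 and interferon-stimulated genes 0.44 over 20, with none of their members free of overlap. Complement genes had a median of 0.20, with 1 of 15 below WT without overlap, and Schwann cell genes -0.42, with 0 of 7. Aldoc, a brain-type aldolase that also serves glycolysis elsewhere, was at 12.4, 16.7 and 12.2 CPM in WT and 7.58, 5.26 and 5.92 CPM in Col5a1CKO. Dpp4 (CD26), a marker of papillary and scar-forming fibroblasts, was at 89.8, 35.4 and 48.4 CPM in WT and 14.6, 26.9 and 27.1 CPM in Col5a1CKO, while Twist2 had the opposite order. Neither Aldoc nor Dpp4 passed the threshold in edgeR.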
